A study of Arabidopsis thaliana with 12 samples.

Results

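The subject is the interaction of high light and heat in leaves of Arabidopsis thaliana, the thale cress: how far the transcript level under both stresses together departed from the level that the separate effects of each stress add up to. A gene was included when its mean normalised count over the 12 libraries was at least 10, which held for 19309 of the 32833 loci listed. Wild-type Col-0 plants were raised for 30 days under 12 h of daily light (50 µmol m-2 s-1, 23 °C). They were left untreated (control), given 600 µmol m-2 s-1 (high light), given 42 °C (heat) or given both (the combination), for 7 h, with 3 poly(A)-selected libraries per group. The labels give no temperature for the high light plants and no light level for the heat plants; the effect of heat without high light is called here heat at growth light. Nothing in them ties a library to a plant of its own, and p-values below therefore reflect variation among libraries that may be technical.

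Light and temperature are sensed together in leaves. The photoreceptors phytochrome B, cryptochrome and UVR8 act through COP1, PIF factors and HY5, and phytochrome B also responds to temperature. Excess light reaches the nucleus through signals from chloroplasts, reactive oxygen species and sugars, which lower antenna genes and raise photoprotective and flavonoid genes. Heat acts mainly through class A heat shock factors, which raise chaperone genes.

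The interaction is the light effect in heat (combination against heat) minus the light effect without heat (high light against control), on the scale of log2(normalised count + 1). It equals the heat effect in high light minus the heat effect at growth light. A value of 0 means that the fold changes of the single stresses multiply. A gene is called above additivity where the value is positive, and below where it is negative, at an adjusted p under 0.05 (limma, Benjamini-Hochberg over all 19309 genes). Every ± below is a standard error from that fit over 3 libraries per group, and every per-gene level is a normalised count in libraries 1, 2 and 3.

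Total reads per library lay between 29814116 and 36938786. Size factors were 0.535 to 0.605 in the combination and 1.05 to 1.53 elsewhere, and the 20 most abundant genes took 20.2% to 27.4% of the combination's reads against 8.57% to 14.5% in the other groups. Correlations between libraries of a group were 0.936 to 0.99, lowest in heat. The 20 most abundant genes took 9.24%, 11.59% and 14.07% of reads in heat libraries 1, 2 and 3. The chaperone genes HSP101 and HSP70B rose in the same order, and HSP90.5 did not. The share of reads from the plastid genome was 0.2125% in combination library 2 and 0.0176% to 0.0588% in the other 11. Mesophyll markers took 2.49% to 5.45% of reads in every library. Of the flower and root markers, 4 of 10 were tested, and nearly all of their reads came from GRP3, a glycine-rich protein gene; 1 was above additivity and 0 below (median 0.27), and 0 above and 2 below with library totals (median −0.52). The counting strand is not given in the sources used here, so overlapping and antisense genes, and near-identical copies such as those of LHCB1, LHCB2, RBCS and BIP, may share reads.

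Non-additive levels were common and went both ways. Above additivity were 4443 genes (23.0% of those tested) and below it 4484 (23.2%), and the median interaction over all genes was −0.01. This balance depends on the scaling of the libraries, as given below. The quartiles of all values were −0.87 and 0.86, and the outer percentiles (5% and 95%) were −2.48 and 2.63. An absolute interaction of at least 1 was reached by 7197 called genes, of at least 2 by 3108 and of at least 4 by 498. In each of the 12 fits that left out 1 library, 6871 of the calls were kept, 3422 above and 3449 below.

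Fewer genes could be placed close to additivity than away from it. The 95% interval of the interaction lay within −1 to 1 for 3634 genes (18.8%), while 6807 genes were neither called nor held within that range, and the median distance from the estimate to either bound was 0.756. Of the genes with a symbol that each single stress changed by at least 2 log2 units, 0 had an interval within −1 to 1. The number of genes with both such changes was not counted, so this 0 gives no share. Interval widths alone could keep such genes out, so it does not show that they depart from additivity. The sign did not depend on adding logs in place of counts for most calls: 66 of the 8927 called genes (0.739%) departed the other way when the counts themselves were added. The scaling of the libraries mattered more. Dividing by library totals in place of the deposited size factors moved the median interaction of all genes by −0.81 and gave 1813 genes above and 8804 below, so that 17.1% of calls were above against 49.8% with the deposited size factors. Where library totals changed the sign of a list's median or the balance of its calls, their values are given beside it.

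Light effects were nearly unrelated with and without heat. Across the 19309 genes, which are not independent, the light effect without heat and the light effect in heat had a Pearson r of 0.0436, and the heat effects at growth light and in high light one of 0.413. The 2 effects in each pair share no library. High light without heat raised 3496 genes (18.11%) and lowered 3205 (16.6%), and in heat it raised 5388 (27.9%) and lowered 5219 (27.0%). Heat at growth light raised 4745 (24.6%) and lowered 4783 (24.8%), and in high light it raised 5421 (28.1%) and lowered 5654 (29.3%). These calls share 1 estimate of the spread over all 4 groups. Fitted to the control and high light libraries alone, light without heat raised 5166 and lowered 5134, and with the replicate number as a block, since same-numbered libraries of these groups deviated together, 5435 and 5502.

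**Figure D1:**
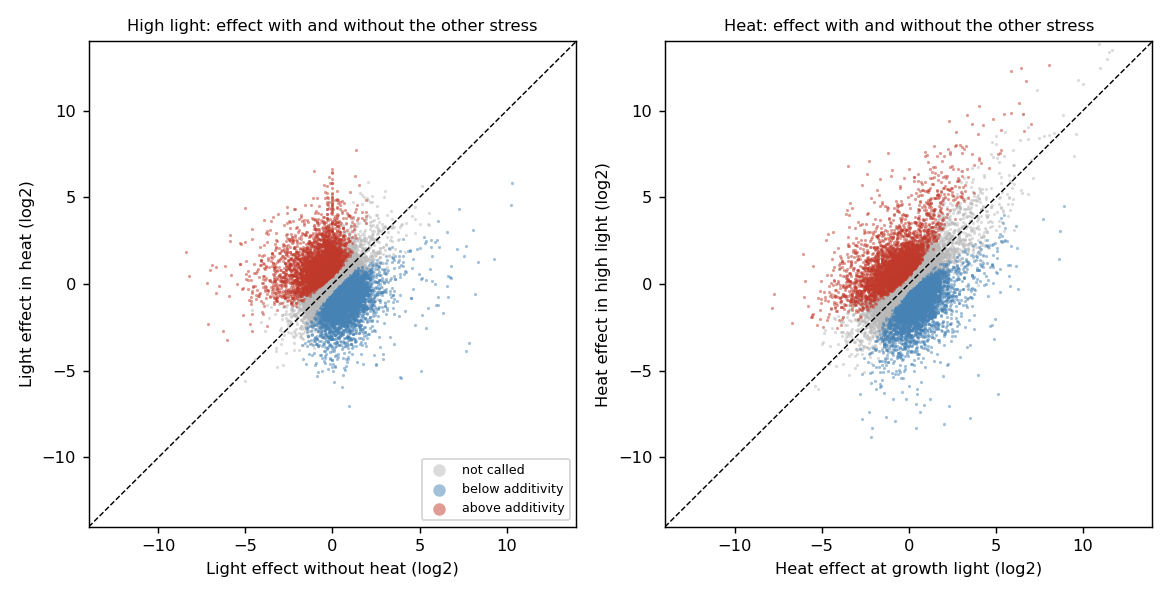
Each point is 1 of the 19309 genes. Left, light effect in heat (y) against light effect without heat (x); right, heat effect in high light (y) against heat effect at growth light (x), all in log2 units, with the dashed line where both effects are equal and colours for the call of the interaction. The light effects form a round cloud (r 0.0436), while the heat effects stretch along the line (r 0.413).

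The most frequent pattern was a light effect called in heat and not called without it. Of the 4443 genes above additivity, 2222 (50%) had no light call without heat and a rise in heat, 1014 lost a light-induced fall, and 883 switched from a fall to a rise. Of the 4484 below, 2235 (49.8%) had no light call without heat and a fall in heat, 1010 lost a light-induced rise, and 814 switched from a rise to a fall. In the fit to control and high light alone, 1589 of the 2222 and 1614 of the 2235 still had no light call without heat. There, 483 of the 2222 were called as a fall and 150 as a rise. Likewise, 451 of the 2235 were called as a rise and 170 as a fall. In all, the light effect reversed between passing calls of opposite sign for 1697 genes (8.79%) and the heat effect for 1804 (9.34%), and 872 reversed in both. The combination lay above each single stress and above control for 1917 of the genes above additivity, and below them for 2102 of those below.

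**Figure D2:**
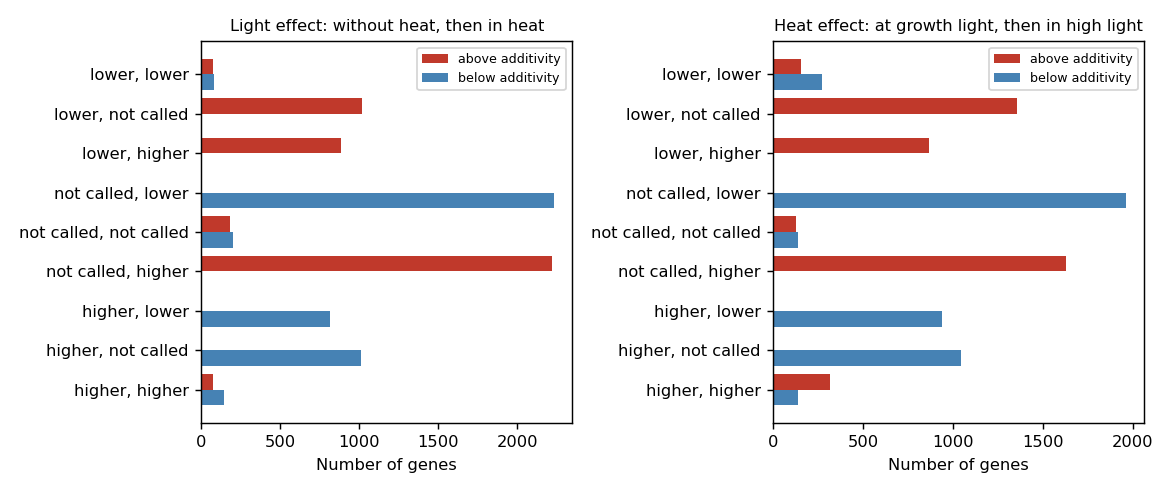
Number of called genes (x) by the call of the first and second effect of each pair (y): light without heat and in heat on the left, heat at growth light and in high light on the right. The longest bars are genes with no light call without heat and a light call in heat, 2222 above and 2235 below additivity.

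The 27 pathway lists separated widely around the median of all genes. Antenna proteins, defence output, photosystem subunits and the cell cycle lay highest, and flavonoid genes lowest.

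**Figure D3:**
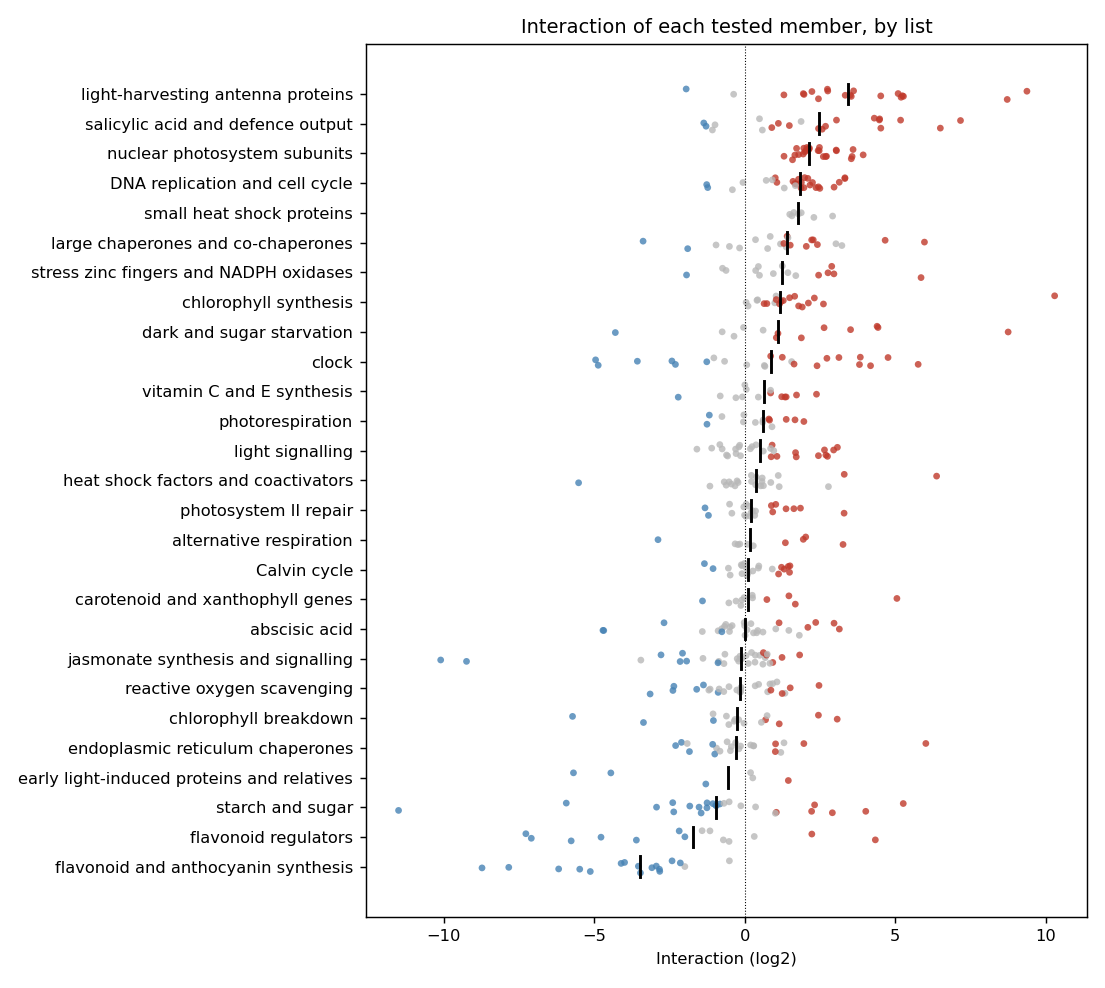
Interaction of each tested member (x, log2) in 27 pathway lists (y), with red points above additivity, blue points below, grey points not called, and a black bar at each list's median. The medians run from 3.43 for antenna proteins to −3.46 for flavonoid and anthocyanin synthesis, against −0.01 for all genes.

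Antenna genes, which encode the chlorophyll-binding proteins that collect light for the photosystems, fell under high light without heat and rose under high light in heat. Of 20 tested, 18 were above additivity and 1, LHCB4.3, was below it (−1.94), with a median of 3.43. High light without heat lowered 16 and raised 2, and in heat it raised 13 and lowered 0. With library totals 17 were above and 2 below, with a median of 2.61. LHCB2.3, 1 of the major antenna genes of photosystem II, had 11563, 12705 and 15475 normalised counts in control, 223, 857 and 360 under high light, 936, 1431 and 14988 under heat and 54745, 54099 and 61192 under both. All combination libraries stood above all others, although each single stress alone lowered the gene, with heat library 3 the exception at the control level. Light raised it by 4.38 ± 0.78 in heat and lowered it without heat, an interaction of 9.38 ± 1.11 (adjusted p = 5.99e-05, limma), and DESeq2 on the recovered reads did not call it. LHCB1.4 had 169003, 102717 and 166396 in control, 272, 1017 and 373 under high light, 30856, 94228 and 85853 under heat and 127408, 76862 and 69267 under both. The high light libraries stood apart, far below the rest, and the combination overlapped both control and heat. Its interaction was 8.72 ± 0.71 (adjusted p = 1.05e-05, limma).

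Nuclear genes for photosystem subunits moved together. All 25 tested were above additivity, all 25 in every fit that left out 1 library, with interactions from 1.31 (PSB28) to 3.94 (PSAD-2) and a median of 2.15; with library totals 24 were above and 0 below. High light lowered 23 of them without heat and raised 21 in heat. PSAD-2, the stromal subunit of photosystem I that docks ferredoxin, had 24514, 21860 and 22888 normalised counts in control and 2268, 4893 and 3805 in high light. It had 8743, 19997 and 23295 under heat and 37273, 34225 and 39603 under both. Here too the combination lay above every library of the other groups in normalised counts, and the interaction was 3.94 ± 0.48 (adjusted p = 7.03e-05, limma). PSAN, a lumenal subunit of photosystem I that interacts with plastocyanin, gave 3.60 ± 0.37, and PSAO gave 3.57 ± 0.35.

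Chlorophyll synthesis, which supplies these proteins with pigment, followed more weakly. Of 20 genes 14 were above and 0 below, with a median of 1.19; library totals left 7 above and 1 below. PORA, a light-dependent protochlorophyllide oxidoreductase best known from dark-grown seedlings, had the largest positive interaction of all genes named. It had 1600, 1141 and 1361 normalised counts in control, 5.48, 2.29 and 1.77 under high light, 28.8, 132 and 428 under heat and 587, 349 and 391 under both. The high light libraries lay far below the rest, and the combination overlapped heat. The interaction was 10.30 ± 0.99 (adjusted p = 1.91e-05, limma) and 8.42 with a pseudocount of 10. The additive expectation for PORA lies below a count of 0, which no library can reach, and this holds for 79 genes (1.78%) of those above additivity. HEMC, porphobilinogen deaminase, had 16414, 13812 and 16062 in control, 8545, 9269 and 9571 under high light, 3974, 4161 and 5446 under heat and 17259, 18338 and 13716 under both. Both single stresses put it below every control library and the combination overlapped control, an interaction of 2.62 ± 0.24 (adjusted p = 1.7e-05, limma). CRD1, a subunit of the cyclase, gave 2.32 ± 0.53. PORB and PORC, at 0.11 and 0.05, were not called.

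Other chloroplast lists moved less, and their counts are set against 23.0% above and 23.2% below over all genes. Photosystem II repair had 7 of 21 above and 2 below (median 0.21), led by LQY1 at 3.30 ± 0.44 and TLP18.3 at 1.85 ± 0.28, both acting in the repair cycle. The Calvin cycle had 6 of 21 above and 2 below (median 0.12), photorespiration 5 of 14 above and 2 below (median 0.61), and carotenoid genes 4 of 12 above and 1 below (median 0.12). With library totals these medians were −0.61, −0.70, −0.21 and −0.70, and the calls turned to 3 above and 8 below, 0 and 11, 1 and 4, and 1 and 7. CCD4, a carotenoid cleavage dioxygenase, had 3683, 4840 and 4556 normalised counts in control, 90.8, 466 and 194 under high light, 2533, 4516 and 6242 under heat and 7556, 3936 and 9143 under both. Only the high light libraries stood apart, and its interaction was 5.06 ± 0.71 (adjusted p = 0.00017, limma).

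Promoter windows of these lists were searched for light-related motifs, as a description. Windows ran from 250 bases before to 50 after each gene's start in RefSeq's TAIR10.1, and both strands were searched. CACGTG, the G-box bound by HY5 and PIF factors, was in 48% of the photosystem windows and 25% of the antenna windows against 8.93% of all tested genes. GATAAG, the I-box, was in 48% and 30% against 14.9%. ACGTGGC, an abscisic acid element that overlaps the G-box in cacgtggc, was in 44% and 15% against 4.85%. The G-box was in 5% of the chlorophyll synthesis windows and 0% of the carotenoid windows, and in 19% to 21.4% of those of photosystem II repair, the Calvin cycle and photorespiration. In these 5 lists the I-box share was 14.3% to 33.3% and that of ACGTGGC 0% to 20%. Over the whole set above additivity the shares were 9.26%, 17.3% and 5.45%, and over the set below it 7.92%, 14.1% and 3.89%. The 250 bases upstream of LHCB2.3 (chr3:10255656-10255905 on the plus strand) and PORA (chr5:21992815-21993064 on the minus strand) are shown, 5′ to 3′, because these genes had the largest positive interactions of their lists. Capitals mark a G-box in LHCB2.3 and, in PORA, an evening element (AAAATATCT, a clock motif) followed by an I-box.
LHCB2.3: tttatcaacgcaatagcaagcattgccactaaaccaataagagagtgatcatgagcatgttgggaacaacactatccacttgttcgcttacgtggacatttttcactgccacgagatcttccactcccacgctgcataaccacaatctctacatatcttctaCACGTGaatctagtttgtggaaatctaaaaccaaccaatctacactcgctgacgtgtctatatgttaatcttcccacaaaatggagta
PORA: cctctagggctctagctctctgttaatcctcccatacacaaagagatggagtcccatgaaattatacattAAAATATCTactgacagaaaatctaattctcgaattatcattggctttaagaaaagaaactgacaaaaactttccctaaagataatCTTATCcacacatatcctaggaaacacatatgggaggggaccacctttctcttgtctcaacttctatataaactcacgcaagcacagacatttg

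Most genes of dark and sugar starvation were above additivity. These genes are raised when leaves lack sugar and are turned down in bright light. Of 13 tested, 8 were above additivity and 1, BZIP11, below it (−4.30), with a median of 1.11; library totals gave 5 above and 3 below. High light without heat lowered 9 and raised 2, and in heat it raised 4 and lowered 3. ASN1, the asparagine synthetase of starved and darkened leaves, had 534, 378 and 700 normalised counts in control, 13.3, 9.18 and 3.54 under high light, 66.1, 52.1 and 272 under heat and 574, 579 and 1092 under both. Each single stress lowered it below every control library and the combination overlapped control. Its interaction was 8.75 ± 0.81 (adjusted p = 1.63e-05, limma) and 7.58 with a pseudocount of 10. TPS8, a class II trehalose phosphate synthase homologue, had 2019, 2343 and 2314 in control, 89.2, 154 and 61.1 under high light, 889, 882 and 1490 under heat and 706, 641 and 2061 under both. Its high light libraries were the lowest and its heat and combination libraries overlapped, an interaction of 4.43 ± 0.59 (adjusted p = 0.000126, limma). TPS11, its relative, gave 4.40 ± 0.47, and SEN1, a marker of dark-induced senescence, 7.72 ± 0.62, with at most 0.885 in the high light libraries. For SEN1 the size depended on the pseudocount, at 4.85 with a pseudocount of 10.

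I-boxes were in 69.2% of the 13 windows of this list against the 14.9% of all tested genes. The upstream sequences of TPS8 (chr1:26474834-26475083 on the minus strand) and TPS11 (chr2:8108648-8108897 on the plus strand) are shown because each holds a pair of I-boxes, in capitals (GATAAG or its reverse complement CTTATC).
TPS8: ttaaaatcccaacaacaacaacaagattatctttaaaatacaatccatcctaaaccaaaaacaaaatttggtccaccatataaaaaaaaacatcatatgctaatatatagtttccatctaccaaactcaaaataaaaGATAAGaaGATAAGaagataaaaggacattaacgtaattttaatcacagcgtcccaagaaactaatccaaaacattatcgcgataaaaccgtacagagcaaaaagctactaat
TPS11: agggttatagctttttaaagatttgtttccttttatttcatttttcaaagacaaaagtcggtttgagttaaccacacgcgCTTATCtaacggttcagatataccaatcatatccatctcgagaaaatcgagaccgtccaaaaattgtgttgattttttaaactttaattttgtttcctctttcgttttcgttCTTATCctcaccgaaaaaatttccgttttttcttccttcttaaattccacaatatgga

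**Figure D4:**
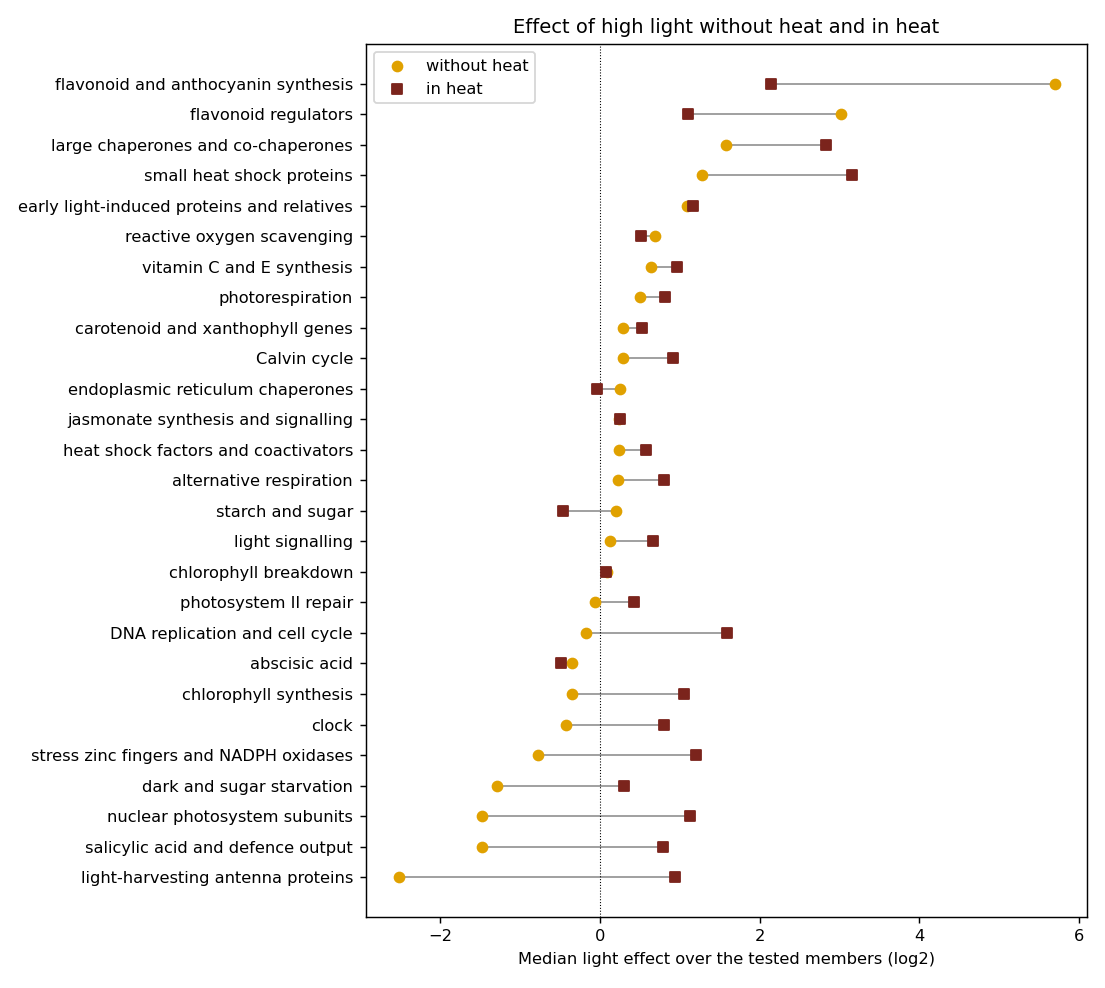
Median light effect over the tested members of each list (x, log2), without heat (circles) and in heat (squares). Antenna genes move from −2.52 to 0.94 and photosystem subunits from −1.48 to 1.12, while flavonoid synthesis genes move from 5.70 to 2.14.

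Defence genes of the salicylic acid pathway were also above additivity. They act in immunity against biotrophic pathogens. Of 21 tested, 14 were above and 2 below, with a median of 2.45, and library totals gave 10 above and 3 below. High light without heat lowered 14 and heat at growth light lowered 15, and in heat high light raised 8 and lowered 2. LURP1, a late defence gene, had 9383, 5677 and 4866 normalised counts in control, 1376, 460 and 575 under high light, 55, 13.5 and 33.4 under heat and 570, 1003 and 204 under both. The combination stayed below control, overlapped high light and lay above all heat libraries, with an interaction of 7.17 ± 0.85 (adjusted p = 6.19e-05, limma). PCC1 had 22872, 18255 and 23251 in control, 7291, 2612 and 5424 under high light, 49.1, 79 and 185 under heat and 2468, 2920 and 820 under both. Its order of groups was the same, and its interaction was 6.50 ± 0.75 (adjusted p = 5.19e-05, limma). SARD1, a transcription factor that drives salicylic acid synthesis, gave 5.18 ± 0.77. The summed share of all reads, before scaling, was 0.0125% to 0.0171% in the combination and 0.0152% to 0.0214% in heat. It was 0.0379% to 0.0667% in high light and 0.148% to 0.177% in control. These shares carry no size factor, unlike the normalised counts and calls above.

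Genes of DNA replication and the cell cycle fell in heat at growth light, and light raised most of them in heat. Of 28 tested, 20 were above and 2 below (CYCD3;1 and PCNA2), with a median of 1.83; library totals gave 10 above and 4 below. Heat at growth light lowered 23 and raised 0, whereas light raised 22 of them in heat and 1 without it. Before scaling, the list's summed share of all reads was 0.0321% to 0.0483% in the combination and 0.0201% to 0.0302% in heat. That share was 0.0577% to 0.071% in control. TSO2, the small subunit of ribonucleotide reductase, had 3720, 4626 and 4094 normalised counts in control, 2718, 3067 and 3037 under high light, 684, 1341 and 1773 under heat and 5155, 12414 and 6311 under both. In normalised counts heat libraries were the lowest and combination libraries the highest, with no overlap. The TSO2 interaction was 3.14 ± 0.48 (adjusted p = 0.000292, limma). CYCB1;4, a mitotic cyclin, had 247, 184 and 219 in control, 168, 154 and 188 under high light, 51.1, 9.88 and 63 under heat and 296, 232 and 259 under both. The combination overlapped control, and the interaction was 3.33 ± 0.70 (adjusted p = 0.00219, limma). In these whole-leaf libraries, fewer cells of a type and less RNA per cell cannot be told apart.

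Flavonoid and anthocyanin synthesis, which makes ultraviolet-absorbing and red pigments under strong light, was the list furthest below additivity. Of 17 tested, 15 were below and 0 above, with a median of −3.46, and library totals gave 16 below. High light raised all 17 without heat and 14 in heat; heat in high light lowered 16. CHS, chalcone synthase at the entry of the pathway, had 631, 949 and 600 normalised counts in control, 179684, 94171 and 175259 under high light, 2471, 5865 and 4426 under heat and 15788, 27535 and 13644 under both. None of the 4 groups overlapped, and the combination lay between heat and high light. Each single stress raised CHS, by 7.66 ± 0.36 in high light and 2.49 ± 0.36 in heat, and the interaction was −5.48 ± 0.51 (adjusted p = 1.7e-05, limma).

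The light rise in heat was not called for TT7, UF3GT and 5MAT, an anthocyanin acyltransferase gene. TT7, flavonoid 3′-hydroxylase, had 29.6, 39.4 and 41.9 in control, 21101, 4564 and 13218 under high light, 76, 42.2 and 37.2 under heat and 52.9, 31.8 and 21.7 under both. Only the high light libraries stood apart: its light effect was 8.17 ± 0.49 without heat and −0.55 ± 0.49 in heat, not called there, and the interaction was −8.73 ± 0.69 (adjusted p = 1.02e-05, limma). UF3GT, a glycosyltransferase that decorates anthocyanins, had 32.9, 29.2 and 44.4 in control, 3855, 2589 and 4596 under high light, 40.6, 3.59 and 1.91 under heat and 8.27, 11.2 and 11.7 under both. Every combination library was below every control library, and the interaction was −6.18 ± 1.02 (adjusted p = 0.000483, limma). UGT78D3, a flavonol arabinosyltransferase, gave −7.84 ± 0.81.

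Regulators of the pathway went both ways. Of 14 tested, 7 were below and 2 above, with a median of −1.70. The activators MYB111 (−7.27 ± 0.54), PAP2 (MYB90; −7.09 ± 1.14), MYB11 (−5.76 ± 1.19), TT8 (−4.77), MYB12 (−3.60) and GL3 (−2.17) were below, as was MYB7 (−1.99). The repressor MYBL2 (4.34) and the scaffold protein gene TTG1 (2.23) were above. MYB111, an activator of flavonol synthesis, had 70.9, 45.7 and 46.1 in control, 5597, 2573 and 3315 under high light, 253, 271 and 142 under heat and 69.4, 161 and 70.3 under both. Its combination libraries overlapped control and heat and lay far below high light. PAP2 and MYB11 were at or below 11.6 in every library outside high light, and edgeR on the recovered reads called neither.

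HY5, the light-signalling factor upstream of many flavonoid genes, was not called. It had 118, 132 and 151 in control, 1202, 859 and 1261 under high light, 80.5, 137 and 303 under heat and 1053, 2255 and 1521 under both. The high light groups overlapped each other, with or without heat, and lay above both groups without high light. Light raised HY5 by 3.03 ± 0.40 without heat and 3.35 ± 0.40 in heat, and the interaction was 0.32 with a 95% interval from −0.90 to 1.54 (adjusted p = 0.662, limma). Other light-signalling genes were above additivity for 11 of 28 and below for 0, with a median of 0.50; with library totals they were 6 above and 7 below, and the median was −0.32. BBX25 (3.08 ± 0.91) and HFR1 (2.96 ± 0.73), which both act in photomorphogenesis, led them, and edgeR and DESeq2 on recovered reads did not call BBX25.

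The G-box was in 29.4% of the 17 flavonoid synthesis windows, against 8.93% of all tested genes. UF3GT is shown (chr5:21938397-21938646 on the minus strand) because its upstream sequence holds a pair of G-boxes, in capitals.
UF3GT: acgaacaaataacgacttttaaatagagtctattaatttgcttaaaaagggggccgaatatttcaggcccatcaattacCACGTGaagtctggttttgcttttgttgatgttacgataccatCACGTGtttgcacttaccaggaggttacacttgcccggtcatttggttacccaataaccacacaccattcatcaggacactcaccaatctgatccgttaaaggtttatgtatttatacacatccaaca

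Early light-induced proteins, which bind chlorophyll in stressed thylakoids, kept a large light response in heat but a smaller one. ELIP2 had 3.38, 9.46 and 12 normalised counts in control, 21269, 3424 and 14771 under high light, 5.89, 144 and 152 under heat and 896, 3239 and 693 under both. The combination libraries lay below each high light library and above each heat library. Its light effect was 10.25 ± 1.07 without heat and 4.56 ± 1.07 in heat, and the interaction was −5.69 ± 1.51 (adjusted p = 0.00861, limma). ELIP1 gave −4.45 ± 1.58 (adjusted p = 0.0357, limma), a call lost in 8 of the 12 fits that left out 1 library and with a robust variance prior. Of the 6 genes tested in the list, 3 were below and 1, OHP2, was above.

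Light raised BAM5, VSP1 and VSP2 without heat and lowered them in heat. BAM5, a beta-amylase, had 2.53, 0.788 and 48.7 normalised counts in control, 1348, 775 and 2525 under high light, 501, 225 and 121 under heat and 13.2, 22.4 and 13.4 under both. Each single stress raised it and the combination fell back within the control range. The light effect was 7.67 ± 0.96 without heat and −3.83 ± 0.96 in heat, and the interaction, −11.50 ± 1.35, was the most negative of the genes named (adjusted p = 5.99e-05, limma) and −9.40 with a pseudocount of 10. VSP1, a vegetative storage protein raised by jasmonate, had 175, 38.6 and 553 in control, 7855, 1977 and 9577 under high light, 2070, 150 and 822 under heat and 64.5, 9.34 and 10 under both. Its high light libraries lay above control and overlapped heat library 1, and its combination libraries 2 and 3 lay below every control library while library 1 lay within the control range, with an interaction of −10.10 ± 1.54 (adjusted p = 0.000292, limma). VSP2, its neighbour and close relative, had 476, 138 and 1004 in control, 6930, 2795 and 11401 under high light, 15552, 1681 and 10135 under heat and 1033, 61.7 and 60.2 under both. It overlapped control in the combination and was above it under each single stress, with an interaction of −9.24 ± 1.57 (adjusted p = 0.000579, limma).

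The rest of the jasmonate list was mixed. Of 32 genes tested, 7 were below and 5 above, near the 23.2% and 23.0% of all genes, with a median of −0.11; with library totals 0 were above and 12 below (median −0.92). Below were VSP1, VSP2, MYC4 and the synthesis genes AOC2 (−2.78 ± 0.58), LOX2 (−2.14 ± 0.61), OPR3 (−2.06) and LOX3 (−1.93). Above were JAZ3 (1.83), AOC4 (1.24), COI1 (0.93), AOC1 (0.72) and JAZ12 (0.62). JAZ10, a repressor often used as a marker of jasmonate response, was not called at 0.84, with a 95% interval from −0.94 to 2.61 (adjusted p = 0.421, limma).

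More starch and sugar genes were below additivity than above it. Of 25 tested, 14 were below and 6 above, with a median of −0.94. Of the beta-amylase and starch breakdown genes, all 8 that were matched and tested were below. They were BAM5, ISA3 (−2.93), SEX1 (−2.39), SEX4 (−2.36), BAM3 (−1.82), DPE1 (−1.52), AMY3 (−1.25) and DPE2 (−0.82). A part of BAM5 in leaf starch breakdown was not tested. The starch synthesis genes SBE2.1 (−1.45), SS4 (−1.25), APL3 (−1.06), SBE2.2 (−0.96) and APL2 (−0.94) were below too, as was GPT2 (−5.93 ± 0.77), which carries glucose 6-phosphate across the chloroplast envelope. The synthesis genes APL4, ADG1, GBSS1 and SS1 and SIP2, a raffinose-metabolism gene, were not called. Above were the galactinol synthases GOLS2, GOLS3 (4.02) and GOLS1 (2.32), the raffinose synthase homologues RS5 (2.91) and DIN10 (2.23), and APL1 (1.05), a subunit of the first enzyme of starch synthesis. GOLS2 had 1277, 649 and 1142 in control, 59.5, 122 and 90.3 under high light, 6024, 5592 and 3838 under heat and 11916, 26822 and 16682 under both. No groups overlapped, with high light lowest and the combination highest, and its interaction was 5.27 ± 0.49 (adjusted p = 1.63e-05, limma). The light effect on GOLS2 was −3.48 ± 0.34 without heat and 1.79 ± 0.34 in heat.

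Clock genes went both ways. Of 23 tested, 11 were above and 6 below (median 0.86), and library totals gave 7 and 7 (median 0.05). Above were the morning genes RVE1 (5.77 ± 1.45), LHY (4.76) and CCA1 (3.81), with LNK4, LNK3, LNK2, RVE8, RVE4, CHE, LKP2 and ZTL. Below were PRR3 (−4.95 ± 0.95), ELF4 (−4.87 ± 1.21), TOC1 (−3.56), ELF3 (−2.42), BOA (−2.30) and GI (−1.26), of which TOC1, ELF3, ELF4, BOA and GI are known as day or evening genes. RVE1 had 12.7, 25.2 and 19.6 normalised counts in control, 5.48, 8.41 and 8.85 under high light, 12.4, 33.2 and 669 under heat and 904, 1848 and 2406 under both. The combination lay above all others, heat library 3 came nearest, and edgeR did not call the interaction. PRR3 had 2984, 2239 and 2595 in control, 3154, 3068 and 2560 under high light, 2525, 2064 and 1251 under heat and 283, 56 and 18.4 under both. Only the combination stood apart, below all others (adjusted p = 0.00124, limma). The evening element was in 26.1% of the clock windows against 3.05% of all tested genes, and the G-box in 47.8%.

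**Figure D5:**
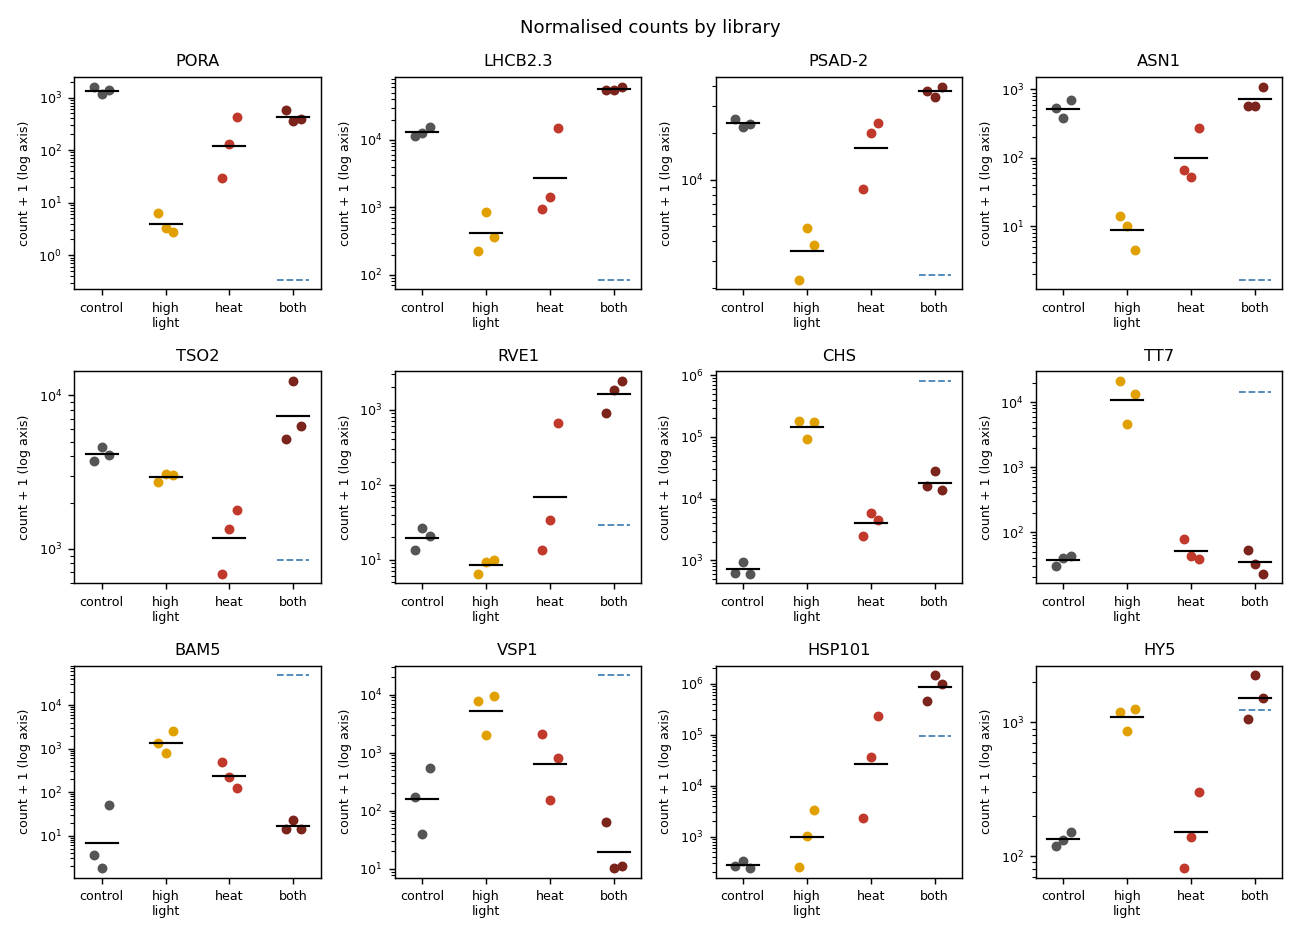
Normalised count + 1 on a log axis (y) of 12 genes in the 3 libraries of each group (x). Black bars are group means of log2(count + 1), and blue dashed lines are the level expected in the combination if the log2 effects of both stresses add. The combination lies above the dashed line for PORA to RVE1 and below it for CHS to VSP1, while HSP101 and HY5 were not called.

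Heat shock proteins, which keep other proteins folded in heat, varied widely in level between libraries of a group. Among the 41 genes that RefSeq annotates as HSP20-like chaperones, 35 were tested, with a median of 1.19. Of these, 7 were above and 2 below (20% and 5.71%, against 23.0% and 23.2% of all genes). Library totals gave 3 above and 6 below. The list of named small heat shock proteins matched 7 of 14 names; none of these 7 was called, although all 7 interactions were positive (up to 2.92, median 1.79) and all 7 rose in heat and in heat added to high light. Leave-one-out fits called 0 to 2 of them. HSP17.6A, a cytosolic member, had 1.69, 56.8 and 1.71 normalised counts in control, 3.91, 18.4 and 144 under high light, 2497, 20903 and 57668 under heat and 230464, 530859 and 351888 under both. Heat libraries spread over a wide range and every combination library lay above them. The interaction was 2.92 with a 95% interval from −1.34 to 7.19 (adjusted p = 0.241, limma). HSP101, the disaggregase of acquired heat tolerance, had 269, 334 and 243 in control, 259, 1058 and 3323 under high light, 2325, 36624 and 231174 under heat and 463511, 1461293 and 997091 under both. It showed the same order, with an interaction of 3.23 and an interval from −0.68 to 7.14 (adjusted p = 0.16, limma).

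Among 22 large chaperones and co-chaperones, 9 were above and 2 below, with a median of 1.396. That count ranged from 2 to 14 above when 1 library was left out, was 4 above and 4 below without heat library 1 and combination library 2, and 2 above and 4 below with library totals. HSP70B, a cytosolic chaperone, had 177, 333 and 190 in control, 124, 189 and 349 under high light, 561, 38834 and 360302 under heat and 751378, 1656873 and 1145525 under both. Its interaction of 5.97 ± 2.24 (adjusted p = 0.0439, limma) was lost in 10 of the 12 leave-one-out fits and was 3.40 without heat library 1. HSP90.5, the HSP90 of chloroplasts, went the other way, with 7974, 9168 and 7365 in control, 56804, 75060 and 51950 under high light, 54138, 69098 and 40018 under heat and 31524, 48059 and 36407 under both. Each single stress raised it, and the combination was above control and overlapped heat but lay below each high light library. Its interaction was −3.37 ± 0.35 (adjusted p = 2.87e-05, limma).

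Heat shock factors were mostly not called: 2 of 23 were above and 1 below, against 23.0% and 23.2% of all genes, and the median was 0.36 (−0.45 with library totals, 2 above and 6 below). HSFA2, a heat-induced factor that prolongs the response, had 16.9, 63.8 and 16.2 in control, 129, 1383 and 4719 under high light, 520, 9332 and 78546 under heat and 252386, 457851 and 427106 under both. The combination lay above all others, and the interaction was 0.53 with an interval from −4.10 to 5.16 (adjusted p = 0.854, limma), wide enough to hide a large departure in either direction; it was −2.35 with edgeR. HSFB2A, a class B repressor, had a mean of 77.2 ± 15.2 (SD, n = 3) in control, 17.2, 39 and 48.7 under high light, 448, 847 and 1235 under heat and 1949, 4530 and 4076 under both. It fell in high light, rose in heat and was highest in the combination with no overlap, at 3.31 ± 0.62 (adjusted p = 0.00111, limma). HSFA7B was listed at 0 in all control libraries, had 0.783, 0.765 and 4.43 under high light, 0.655, 187 and 672 under heat and 5582, 24057 and 15300 under both, and its call was lost in 7 leave-one-out fits. MBF1C, a heat-induced coactivator, had an interaction of 0.87 with an interval from −1.30 to 3.04.

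In the endoplasmic reticulum list 4 of 23 were above and 5 below (median −0.30), near the 23.0% and 23.2% of all genes. Library totals gave 1 above and 14 below (median −1.12). BIP3, the stress-induced HSP70 of that compartment, had 87.8, 70.9 and 9.4 in control, 13.3, 3.82 and 5.31 under high light, 5.89, 17.1 and 195 under heat and 473, 390 and 234 under both. Its combination libraries lay above all others, with 6.02 ± 1.49 (adjusted p = 0.00583, limma). The disulfide isomerases PDIL1-2 (−2.29 ± 0.58) and PDIL2-1 (−2.10 ± 0.39) were below.

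Scavengers of reactive oxygen gave 4 of 27 above and 6 below (median −0.14), against 23.0% and 23.2% of all genes. Library totals gave 2 above and 15 below (median −0.96). The enzymes below were FSD1 (−3.14 ± 0.75), SAPX (−2.38 ± 0.31), DHAR1 (−2.35), APX1 (−1.59 ± 0.32), FSD3 (−1.37) and CAT1 (−0.88). SAPX, a chloroplast ascorbate peroxidase, had 1442, 1256 and 1296 in control, 11783, 8317 and 13404 under high light, 1379, 1943 and 2456 under heat and 3201, 2554 and 3162 under both. High light libraries stood apart, and the combination lay above heat and control and below high light (adjusted p = 0.000116, limma). APX2, the heat-induced cytosolic ascorbate peroxidase, was not called at 0.93, with an interval from −1.18 to 3.04, and neither was the zinc finger gene ZAT12 at 0.37, with an interval from −1.54 to 2.27. ZAT7, another zinc finger gene of that list (5 of 15 above and 1 below; 4 and 3 with library totals), had an interaction of 5.86 ± 1.04 (adjusted p = 0.000796, limma), and 3.52 with a pseudocount of 10. The vitamin C and E list had 6 of 14 above and 1 below (median 0.66), and 2 above and 5 below with library totals (median −0.16). Its called genes ran from VTE5 at 2.39 ± 0.25, a phytol kinase, to VTE2 at −2.21 ± 0.30, the first committed enzyme of tocopherol synthesis.

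Abscisic acid genes lay near the whole, with 5 of 29 above and 4 below and a median of 0.01 (4, 10 and −0.80 with library totals). CYP707A2, which inactivates the hormone, had 46.4, 56 and 52.1 in control, 773, 784 and 525 under high light, 57.6, 82.6 and 56.3 under heat and 76.1, 22.4 and 18.4 under both. Only the high light libraries stood apart, with an interaction of −4.71 ± 0.60 (adjusted p = 9.27e-05, limma). NCED3, the stress-induced step of its synthesis, was not called at 1.47, with an interval from 0.14 to 2.80 (adjusted p = 0.0672, limma). Alternative respiration had 4 of 10 above and 1 below (median 0.19), and 3 above and 4 below with library totals (median −0.62). The dehydrogenase genes NDA1 (3.27 ± 1.06) and NDA2 (2.03 ± 0.27) led the genes above. The NDA1 call was lost in 1 leave-one-out fit, and the NDA1 interaction was 2.14 without heat library 1. Chlorophyll breakdown had 4 of 16 above and 3 below (median −0.26), near the 23.0% and 23.2% of all genes. Library totals gave 1 above and 6 below (median −0.996). NYC1, chlorophyll b reductase, was at −3.36 ± 0.39.

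Outside the lists, the rule for single genes added several with large values. TAS1A, a non-coding precursor of trans-acting small RNAs, had 323, 349 and 309 normalised counts in control, 622, 594 and 673 under high light, 560, 549 and 413 under heat and 54.6, 0 and 0 under both. Only the combination stood apart, below all other libraries, with an interaction of −7.99 ± 1.56 (adjusted p = 0.00141, limma). CSLA01, a glucomannan synthase gene, had 0.844, 0.788 and 0 in control, 378, 389 and 261 under high light, 158, 5.39 and 3.82 under heat and 3.31, 0 and 0 under both. Its interaction was −11.21 ± 1.51 and −6.63 with a pseudocount of 10, and DESeq2 did not call it. EXPA8, an expansin that loosens cell walls, had 3902, 4836 and 3821 in control, 11, 87.9 and 21.3 under high light, 473, 69.2 and 113 under heat and 142, 146 and 212 under both. All stressed libraries lay below control and the combination overlapped heat, with an interaction of 7.26 ± 0.98 (adjusted p = 0.000138, limma). With a pseudocount of 10 it was 6.76. The additive expectation for EXPA8 lies near the lowest level that a library can show. HIR2, a hypersensitive induced reaction gene, reversed in both pairs, with 768, 1193 and 348 in control, 61.1, 31.4 and 93 under high light, 22.3, 46.7 and 243 under heat and 430, 755 and 542 under both, and the combination overlapped control.

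Markers of leaf cell types were mixed, and their counts are set against 23.0% above and 23.2% below over all genes. Guard cell markers had 0 of 11 above and 5 below (median −0.65), phloem markers 1 of 8 above and 4 below (−0.75), xylem markers 0 of 8 above and 2 below (0.08), epidermis markers 2 of 7 above and 1 below (0.29) and mesophyll markers 4 of 8 above and 1 below (0.86). With library totals the medians were −1.404, −1.56, −0.73, −0.53 and 0.04. Epidermis markers then had 0 above and 2 below, and mesophyll markers 2 above and 2 below. The summed share of reads, before scaling, was 0.00443% to 0.00531% in the combination against 0.0108% to 0.0165% elsewhere for guard cell markers. For phloem markers it was 0.0127% to 0.0152% against 0.0364% to 0.0776%. These shares carry no size factor, and size factors were 0.535 to 0.605 in the combination against 1.05 to 1.53 elsewhere. How far the lower shares go with the read composition of the combination libraries was not tested. KAT1, a guard cell potassium channel, had 613, 649 and 733 in control, 1114, 946 and 990 under high light, 598, 728 and 514 under heat and 139, 202 and 129 under both. The combination was lowest without overlap, with an interaction of −2.59 ± 0.28 (adjusted p = 3.4e-05, limma). SWEET12, a phloem sucrose exporter, had 1303, 686 and 1181 in control, 774, 685 and 850 under high light, 1675, 951 and 548 under heat and 165, 33.6 and 21.7 under both, with an interaction of −3.83 ± 0.84 (adjusted p = 0.00294, limma). The part of these cell types in the other results was not tested.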

How the data were processed

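Leaf RNA was sequenced from poly(A)-selected libraries, 3 in each of 4 groups. Per the submitters' processing notes, the tools were FastQC 0.11.7, STAR 2.4.0.1 and DESeq2 1.20.0 with the build TAIR10; the counting tool, strand and filters are not given in the sources used here. The authors deposited normalised counts, a signal in which each library's counts carry its own size factor; in units of the library's smallest step, 100% of the values above 0 were whole (within 0.001).

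Genes with a mean of at least 10 were fitted as log2(normalised count + 1) with limma 3.58.1 (limma-trend, R 4.3.3) on all 12 libraries, 1 mean per group. P-values were two-sided and adjusted by Benjamini-Hochberg over 19309 genes, with a threshold of 0.05. On the recovered reads, edgeR 4.0.16 (quasi-likelihood) called 4082 genes above and 4660 below additivity. DESeq2 1.42.0 was a further alternative, with other scalings, pseudocounts, filters, a replicate block and each library left out. The intervals cover the spread between libraries.

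The members, lists and tests were chosen with earlier results of these data known. Of 617 pathway names, 555 matched, and of 54 marker names 52. The naming rule took the 12 largest interactions per direction called in every leave-one-out fit, the 3 largest called members of each list (or the largest member where none was called), the 5 strongest reversals per direction and pair, and 14 genes always given; genes named in lists of calls are complete lists or were chosen after their values were seen. Names, coordinates and sequences come from RefSeq's TAIR10.1. Figures were drawn with matplotlib 3.10.9.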

Additional observations from a re-analysis of the deposited data

Results flagged for a closer look

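The light effect differed between plants without and with heat for 4443 genes above and 4484 below additivity, by the test of the difference itself (limma interaction, adjusted p under 0.05). Among them, light changed 1697 genes in opposite directions without and with heat, and heat changed 1804 genes in opposite directions at growth light and in high light.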

How the results depend on the processing

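Of the 118 genes named by the rule, 109 were called and 84 of these stayed called in the same direction under every alternative run. No call among all genes was called in the opposite direction under any alternative. Leaving out 1 library gave 3691 to 4832 genes above and 3748 to 5141 below, 1184 to 2101 reversed light effects, 1320 to 2337 reversed heat effects, and 2932 to 3870 genes within 2-fold of additivity. Library totals gave 1813 above, 8804 below and 2119 within 2-fold, sharing 6297 calls with the deposited scaling. An adjusted p under 0.01 gave 2837 above and 2888 below. Same-numbered libraries deviated together in control and high light (r of deviations 0.157 to 0.307 in all 3 pairs). In high light and heat r was 0.147 to 0.152, and in other groups −0.0757 to 0.107. Heat library 2 and combination library 1, of unlike number, had 0.187, so values of this size do not establish a pairing. The labels give no pairing. The replicate block over all libraries gave 4364 above and 4340 below. For the light effect without heat, the control and high light libraries alone gave 5166 genes higher and 5134 lower, and 5435 and 5502 with the block.

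Changes of sign arose in 5 genes that were not called. HSFA2 was −0.29 with library totals, −2.35 with edgeR and −2.31 with DESeq2; −1.37 to 2.25 with 1 library left out; and −1.53 without heat library 1 and combination library 2. For ZAT12 the same settings gave −0.46, −0.19 and −0.16, −0.38 to 0.94, and −0.63. HY5 was −0.50 with library totals, −0.12 to 0.83 with 1 library left out and −0.40 without both; MBF1C was −0.21 to 1.82 and −0.42; and APX2 was −0.19 without both. The cause was not tested. Leaving out both libraries, library totals and the fits to 2 groups were chosen after seeing the data. With 3 libraries per group, wide intervals of heat-induced genes limit what could be called.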
